A study of Mus musculus with 48 samples.

Results

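The lysosomal genes described here are 37 genes for hydrolases, activator proteins, membrane proteins and regulators of the lysosome. They were taken by gene name as a set of the organelle, with the cathepsins left out, and the set was chosen with earlier results of these data known. All 37 were present among the 16014 genes of the expression table, and all 37 passed the filter on low values that left 15975 genes for testing. RNA was sequenced from cortex, hippocampus and thalamus of C57BL/6 mice in 4 arms, with 4 libraries in each of the 12 groups. The arms were 5xFAD mice fed PLX5622 (5xFAD + PLX5622), 5xFAD mice on vehicle chow (5xFAD), wild-type mice fed PLX5622 (PLX5622) and wild-type mice on vehicle chow (Wild-type). PLX5622 was given at 1200 ppm in chow between the ages of 1.5 and 7 months, when tissue was taken. 5xFAD mice carry mutant human transgenes, APP among them, driven by the neuronal Thy1 promoter, so the transgenes model amyloid formed from neuronal expression. PLX5622 is an inhibitor of CSF1R, the receptor that microglia need to survive. The dissected thalamus included striatum. The treatment groups of the study as a whole were balanced for sex, and the brains were dissected into the 3 regions. The sex of the mouse behind each library and which libraries share a mouse are not given in the sources used here, so p-values measure the spread between the libraries as labelled.

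The lysosome is the acidic compartment in which cells break down what they have taken up or no longer need. Its soluble hydrolases remove sugars, sulphates, lipids and peptides step by step, several of them only with a small activator protein, and loss of a single enzyme causes a storage disease that often affects the brain. Its membrane proteins shield the membrane, move products and ions out and fuse the compartment with others. The transcription factor TFEB binds a short E-box sequence in promoters of many of these genes. All cell types have lysosomes, but microglia, the resident phagocytes of the brain, are rich in them, and Cd68 and Laptm5 are expressed mainly by cells of the myeloid or haematopoietic lineage.

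Promoter sequences are shown to set 5 of the genes that changed beside 2 that carry several E-boxes. Windows from 250 bases before to 50 after the RefSeq start site (GRCm38.p6) were found for 34 of the 37 genes, 39 windows in all. Both strands were searched for the E-box CACGTG, which reads the same on both strands, and for GGAAGT, the core letters of an ETS factor site, which appears as ACTTCC on the other strand. The E-box was in 10 of the 34 genes (29.4%), against 8.09% of the 27025 genes with a window. The ETS core was in 12 of 34 (35.3%), against 26.5% of those genes. Each line below gives the 120 bases before the start site on the gene's own strand, with either motif in capitals. The first 5 genes passed the test in most of the diet and genotype comparisons, while Lamp1 passed in 1 and Mcoln1 in none.
Cd68 (chr11:69666171-69666290, minus strand): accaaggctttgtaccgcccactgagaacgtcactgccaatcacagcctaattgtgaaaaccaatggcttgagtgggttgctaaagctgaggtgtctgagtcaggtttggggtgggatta
Laptm5 (chr4:130913196-130913315, plus strand): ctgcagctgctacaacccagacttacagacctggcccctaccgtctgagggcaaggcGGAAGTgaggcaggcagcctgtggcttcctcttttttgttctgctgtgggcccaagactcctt
Man2b1 (chr8:85083149-85083268, plus strand): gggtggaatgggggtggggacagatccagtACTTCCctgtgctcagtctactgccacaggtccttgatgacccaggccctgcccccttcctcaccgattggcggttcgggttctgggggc
Grn (chr11:102430387-102430506, plus strand): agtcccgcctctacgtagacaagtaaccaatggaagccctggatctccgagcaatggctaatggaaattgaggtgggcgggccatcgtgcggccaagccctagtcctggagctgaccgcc
Hexa (chr9:59539420-59539539, plus strand): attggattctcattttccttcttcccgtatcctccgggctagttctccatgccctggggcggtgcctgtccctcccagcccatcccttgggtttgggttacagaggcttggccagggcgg
Lamp1 (chr8:13159041-13159160, plus strand): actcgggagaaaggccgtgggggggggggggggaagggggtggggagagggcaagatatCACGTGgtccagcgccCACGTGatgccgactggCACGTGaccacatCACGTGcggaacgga
Mcoln1 (chr8:3500399-3500518, plus strand): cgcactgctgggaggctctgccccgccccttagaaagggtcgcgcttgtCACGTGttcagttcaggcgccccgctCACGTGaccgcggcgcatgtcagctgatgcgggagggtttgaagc
Lamp1, one of the most abundant glycoproteins of the lysosomal membrane, had 4 E-boxes, beginning 61, 45, 28 and 15 bases before the start site. Mcoln1, the TRPML1 calcium channel, had 2. The printed stretches of Cd68, Grn and Hexa held neither motif, and those of Laptm5 and Man2b1 each held an ETS core, beginning 63 and 90 bases before the start. Outside its printed stretch, the searched window of Cd68 held an ETS core at position 12 past the start site. That of Gusb, which is not printed, held an ETS core at position 38. Lgmn, which passed in 5 comparisons and is not printed either, held an E-box beginning 49 bases before a start site. Cln3 (149 and 121 bases before) and Gla (227 and 194) also held E-boxes and are not printed. The printed stretches are therefore a selection, while the counts cover all windows. The 10 genes with an E-box were Arsa, Cln3, Gaa, Gla, Glb1, Lamp1, Lgmn, Mcoln1, Naglu and Sgsh. Of these, Lgmn and Lamp1 passed in at least 1 of the 9 comparisons of genotype or diet below, beside 11 of all 37 genes. A match is a description of these letters, and the binding of any factor was not measured.

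**Figure D1:**
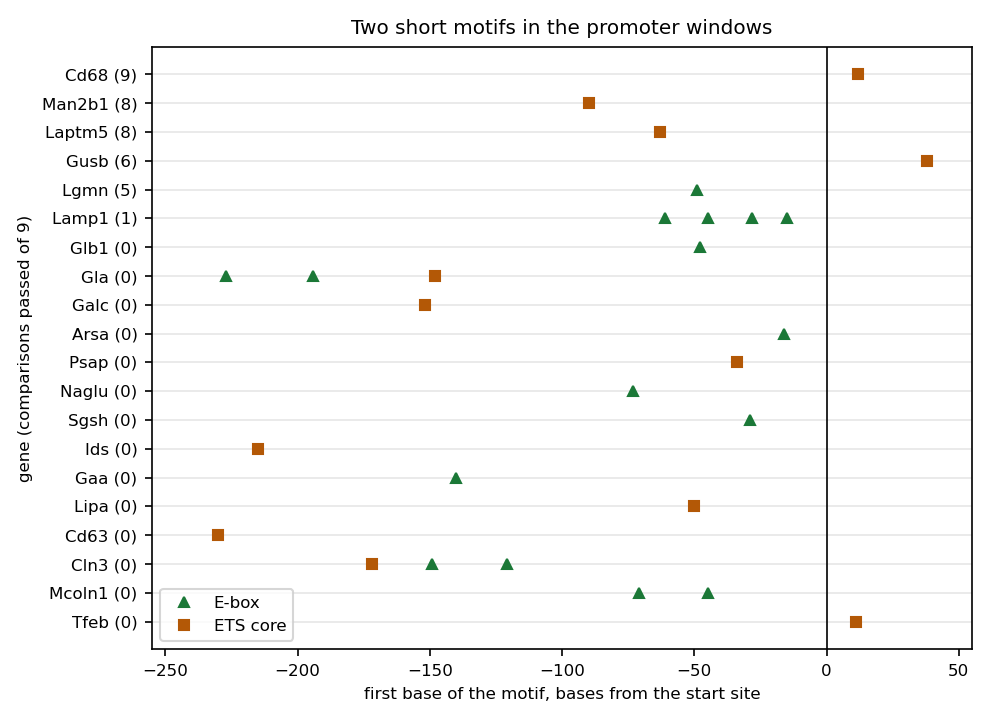
Positions of the E-box CACGTG (triangles) and of the ETS core GGAAGT (squares) in the promoter windows of the genes that hold either, as the first base of the motif in bases from the start site, with 0 drawn as a line. Genes are ordered by the number of the 9 comparisons in which they passed the test, given in brackets. Of the 10 genes with an E-box 8 passed in none, beside 26 of all 37 genes.

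Levels were deposited as RPKM, a read count scaled by gene length and by library size. Depth, recovered from the RPKM values as whole reads, was about 6195000 to 16020000 reads per library, with a median of 10945000. Fold changes below are on the scale log2(RPKM + 0.1), tested with limma across all 48 libraries, and a gene passed at an adjusted p below 0.05. The 16 microglial marker genes summed to 27.2-43.9 RPKM in 5xFAD + PLX5622 cortex, 53.6-209 RPKM in 5xFAD + PLX5622 hippocampus and 14.1-30 RPKM in 5xFAD + PLX5622 thalamus, against 319-508, 468-579 and 325-463 RPKM in the same regions of 5xFAD mice. They summed to 10.4-33.7, 13.1-22.6 and 11.9-37.4 RPKM in cortex, hippocampus and thalamus of PLX5622 mice, against 179-202, 181-200 and 197-243 RPKM in Wild-type mice. The defining markers Tmem119, P2ry12 and Csf1r were above 0 in every library, Tmem119 averaging 0.41, 1.33 and 0.478 RPKM in 5xFAD + PLX5622 cortex, hippocampus and thalamus, against 8.75, 10.6 and 8.78 RPKM in 5xFAD mice. In 5xFAD + PLX5622 hippocampus, replicates 3 and 4 contained 634 and 112 RPKM of the liver gene Alb, and PLX5622 hippocampus replicate 4 contained 39.4 RPKM, and all 7 falls with PLX5622 in 5xFAD hippocampus described below also passed without the first pair. Markers of cortical neurons separated Wild-type cortex (112-148 RPKM summed) from Wild-type thalamus (35.5-55.8 RPKM), but those of hippocampal dentate gyrus overlapped between regions (37.5-90.8 RPKM in hippocampus, 53.8-70.8 RPKM in thalamus and 42.5-56.2 RPKM in cortex). The part of these marker differences in the lysosomal results was not tested.

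Of the 37 genes, 11 passed in at least 1 of the 9 comparisons of genotype or diet, and 7 passed in 5 or more. The share of all tested genes that passed in so many of the 9 is not given here. The backgrounds below are for single comparisons, so these pooled counts have none beside them. In 5xFAD against Wild-type mice, 7 genes were higher in cortex, where 0.714% of all tested genes were higher. In hippocampus 9 were higher (background, the share of all tested genes that passed in that direction, 1.54%), and in thalamus 5 were higher (background 0.407%). With PLX5622 in 5xFAD mice, 7 genes fell in cortex, where 2.05% of tested genes fell. In hippocampus 7 fell (background 2.27%) and in thalamus 8 fell (background 2.42%). With PLX5622 in wild-type mice, 5 genes fell in cortex (background 1.34%), 3 in hippocampus (background 2.44%) and 4 in thalamus (background 3.3%). The median log2 fold change over the set was 0.14, 0.16 and 0.09 in 5xFAD against Wild-type cortex, hippocampus and thalamus, beside 0.001, -0.007 and -0.001 over all tested genes. With PLX5622 it was -0.08, -0.08 and -0.002 in 5xFAD mice, beside 0.008, 0.017 and 0.020 over all tested genes, and -0.03, 0.05 and 0.08 in wild-type mice, beside -0.004, 0.005 and 0.004. Cd68 passed in all 9 comparisons, Laptm5 and Man2b1 in 8, Grn in 7, Hexa and Gusb in 6, Lgmn in 5, Arsb and Npc2 in 2, and Asah1 and Lamp1 in 1, while 26 genes passed in none. The 5xFAD libraries serve in both the genotype and the 5xFAD diet comparison, and the Wild-type libraries in both the genotype and the wild-type diet comparison, so opposite signs in these pairs are not separate evidence. In this bulk tissue, fewer cells of a type and less RNA per cell cannot be told apart.

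**Figure D2:**
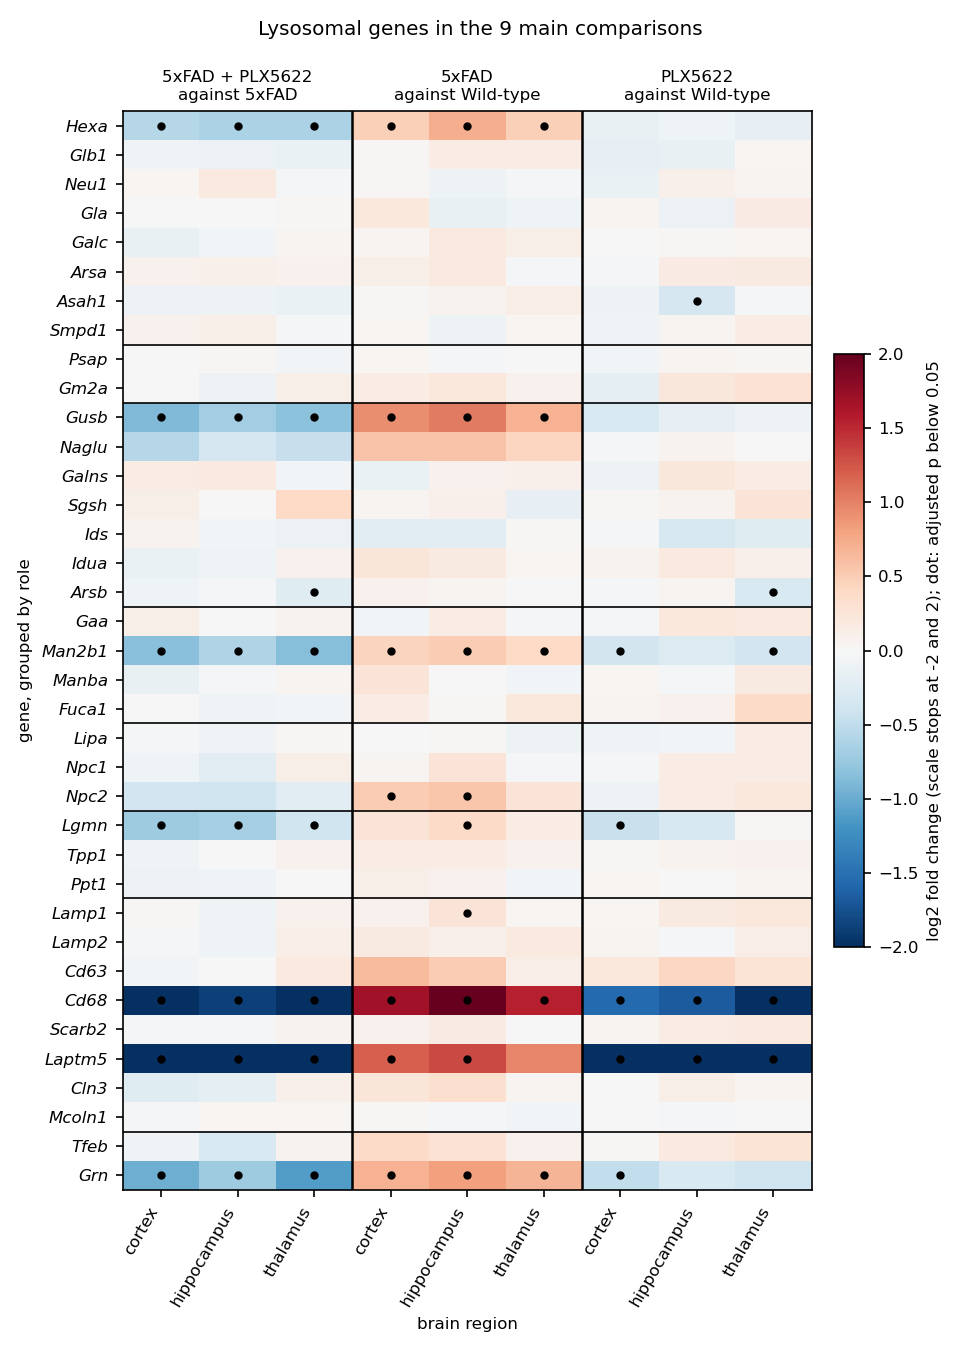
Log2 fold changes of the 37 genes (rows, grouped by role) in 5xFAD + PLX5622 against 5xFAD, 5xFAD against Wild-type and PLX5622 against Wild-type mice in 3 regions (columns); colour stops at -2 and 2, and a dot marks an adjusted p below 0.05. Cd68 has a dot in all 9 columns and 26 genes have none.

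Among the 8 membrane proteins, Cd68 and Laptm5 passed most often and had the largest fold changes in each of the 9 comparisons. Cd68, the macrosialin glycoprotein of the late endosomal and lysosomal membrane of phagocytes (chr11:69664213-69666153, minus strand, mm10), had 3.79, 2.34, 3.56 and 2.86 RPKM in 5xFAD + PLX5622 cortex, against 14, 11.5, 21.6 and 18.1 RPKM in 5xFAD cortex. It had 4.71, 8.11, 4.93 and 6.73 RPKM in 5xFAD + PLX5622 hippocampus, against 23.1, 26.1, 17.9 and 21.4 RPKM in 5xFAD hippocampus. It had 0.849, 1.03, 1.32 and 2.08 RPKM in 5xFAD + PLX5622 thalamus, against 14, 15.5, 20.1 and 17 RPKM in 5xFAD thalamus. All treated libraries lay below all untreated libraries in each region. On wild-type background Cd68 had 2.68, 1.13, 0.907 and 2.24 RPKM in PLX5622 cortex, against 4.36, 5.53, 5.29 and 4.39 RPKM in Wild-type cortex. It had 1.89, 0.901, 1.19 and 2 RPKM in PLX5622 hippocampus, against 4.53, 4.87, 4.63 and 4.82 RPKM in Wild-type hippocampus, and 1.72, 1.1, 1.45 and 0.899 RPKM in PLX5622 thalamus, against 6.76, 5.02, 4.85 and 5.66 RPKM in Wild-type thalamus. These groups did not overlap either, and the 5xFAD libraries all lay above the Wild-type libraries. The log2 fold change in 5xFAD against Wild-type mice was 1.68 in cortex (adjusted p 3.36e-05), 2.19 in hippocampus (adjusted p 2.39e-07) and 1.56 in thalamus (adjusted p 0.000112) (SE 0.262 in each). With PLX5622 it was -2.32 in cortex (adjusted p 6.85e-08), -1.86 in hippocampus (adjusted p 6.07e-06) and -3.62 in thalamus (adjusted p 2.25e-12) in 5xFAD mice and -1.56 in cortex (adjusted p 0.000112), -1.66 in hippocampus (adjusted p 4.26e-05) and -2.05 in thalamus (adjusted p 9.19e-07) in wild-type mice. The mean left in treated 5xFAD mice was 19.2% ± 4.07 of the untreated mean in cortex, 27.7% ± 7.25 in hippocampus and 7.92% ± 3.28 in thalamus (± SD, n = 4).

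Laptm5, a transmembrane protein of lysosomes and endosomes in blood-lineage cells (chr4:130913125-130936141, plus strand, mm10), fell furthest of the set. It had 1.67, 1.4, 1.17 and 0.626 RPKM in 5xFAD + PLX5622 cortex, against 16.9, 17.9, 25.8 and 21.3 RPKM in 5xFAD cortex. It had 1.66, 10.7, 5.85 and 4.94 RPKM in 5xFAD + PLX5622 hippocampus, against 24.7, 29.2, 23.9 and 26.8 RPKM in 5xFAD hippocampus, and 0.397, 0.683, 0.978 and 0.387 RPKM in 5xFAD + PLX5622 thalamus, against 16.6, 22.4, 24.9 and 20.9 RPKM in 5xFAD thalamus. The 5xFAD + PLX5622 hippocampus was the most uneven of these groups, with replicate 1 lowest and replicate 2 highest, but no treated library reached an untreated one. In wild-type mice Laptm5 had 0.88, 0.237, 0.272 and 0.376 RPKM in PLX5622 cortex, against 9.38, 9.03, 7.8 and 8.95 RPKM in Wild-type cortex. It had 0.61, 0.379, 0.346 and 0.28 RPKM in PLX5622 hippocampus, against 10.9, 9.49, 9.63 and 11.4 RPKM in Wild-type hippocampus, and 1.21, 0.773, 0.366 and 0.343 RPKM in PLX5622 thalamus, against 10.7, 9.6, 12.1 and 10.1 RPKM in Wild-type thalamus. The fewest recovered reads in a library of these groups was 4, in PLX5622 cortex, so the low levels rest on few reads. The log2 fold change with PLX5622 was -4.02 in cortex (adjusted p 2.34e-10), -2.42 in hippocampus (adjusted p 1.14e-05) and -4.97 in thalamus (adjusted p 1.58e-12) in 5xFAD mice and -4.17 in cortex (adjusted p 9.75e-11), -4.41 in hippocampus (adjusted p 2.59e-11) and -3.94 in thalamus (adjusted p 3.76e-10) in wild-type mice (SE 0.354 in each). In 5xFAD against Wild-type mice it was 1.19 in cortex (adjusted p 0.0385), 1.33 in hippocampus (adjusted p 0.0183) and 0.98 in thalamus (adjusted p 0.109), so the thalamic difference did not pass, although the 4 5xFAD libraries lay above the 4 Wild-type libraries there. The cortical call ended when any of 7 of the 8 compared libraries was left out (adjusted p 0.0521 to 0.109).

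Of the other 6 membrane proteins, Lamp1 alone passed in any of the 9 comparisons. Its level in 5xFAD hippocampus was 114, 127, 113 and 140 RPKM, against 99.8, 101, 107 and 105 RPKM in Wild-type hippocampus, with no overlap, a log2 fold change of 0.25 (SE 0.0775) and an adjusted p of 0.0448, and the call ended on leaving out any of 15 libraries. Cd63, a tetraspanin of late endosomes, had log2 fold changes of 0.63 in cortex (adjusted p 0.0748), 0.51 in hippocampus (adjusted p 0.189) and 0.13 in thalamus (adjusted p 0.869) in 5xFAD against Wild-type mice, none of which passed. Its cortical libraries did not overlap. In hippocampus the groups overlapped only through Wild-type replicate 3, at 24.6 RPKM, with the 5xFAD libraries at 16.1 to 21.4 RPKM. Scarb2, the receptor that carries glucocerebrosidase to lysosomes, Cln3, the protein missing in juvenile Batten disease, Lamp2 and Mcoln1 passed in none of the 9 comparisons of genotype or diet.

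Of the regulators, Grn passed in 7 comparisons and Tfeb in none. Grn encodes progranulin, which is delivered to lysosomes and cut into granulins (chr11:102430315-102437048, plus strand, mm10). It had 15.8, 13.8, 14.8 and 12.6 RPKM in 5xFAD + PLX5622 cortex, against 23.6, 23.3, 36.6 and 30.3 RPKM in 5xFAD cortex. It had 18.1, 23.6, 19.3 and 19.1 RPKM in 5xFAD + PLX5622 hippocampus, against 30.9, 36.3, 29.3 and 34.5 RPKM in 5xFAD hippocampus, and 13.4, 13.3, 12.6 and 14.7 RPKM in 5xFAD + PLX5622 thalamus, against 23.5, 31.4, 34.8 and 29 RPKM in 5xFAD thalamus. Treated libraries lay below untreated libraries in each region. In wild-type mice it had 13.3, 10.6, 12 and 13 RPKM in PLX5622 cortex, against 17.1, 16.3, 16.6 and 18.9 RPKM in Wild-type cortex. It had 15.3, 16.2, 12.5 and 15.9 RPKM in PLX5622 hippocampus, against 17.9, 14, 22.8 and 20.1 RPKM in Wild-type hippocampus, and 17, 13.5, 11.8 and 14 RPKM in PLX5622 thalamus, against 18.8, 16.1, 19.2 and 19.5 RPKM in Wild-type thalamus. The groups did not overlap in cortex and overlapped in hippocampus and thalamus. The log2 fold change was 0.70 in cortex (adjusted p 0.0006), 0.82 in hippocampus (adjusted p 6.19e-05) and 0.67 in thalamus (adjusted p 0.000948) in 5xFAD against Wild-type mice (SE 0.133 in each). With PLX5622 it was -0.97 in cortex (adjusted p 3.49e-06), -0.71 in hippocampus (adjusted p 0.000493) and -1.12 in thalamus (adjusted p 2.28e-07) in 5xFAD mice, and -0.49 in cortex (adjusted p 0.0206), -0.30 in hippocampus (adjusted p 0.222) and -0.39 in thalamus (adjusted p 0.0811) in wild-type mice, where the call in cortex ended without Wild-type cortex replicate 4 (adjusted p 0.0711) or PLX5622 cortex replicate 2 (0.0804). Tfeb, the transcription factor of lysosomal genes, had log2 fold changes of 0.38 in cortex (adjusted p 0.227), 0.28 in hippocampus (adjusted p 0.444) and 0.09 in thalamus (adjusted p 0.883) in 5xFAD against Wild-type mice.

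Of the 8 sphingolipid hydrolases, Hexa passed in 6 comparisons. It encodes the alpha subunit of beta-hexosaminidase A, which degrades the ganglioside GM2 and is missing in Tay-Sachs disease (chr9:59539540-59565109, plus strand, mm10). It had 21.2, 18.3, 17.9 and 19 RPKM in 5xFAD + PLX5622 cortex, against 24, 26.9, 32 and 31 RPKM in 5xFAD cortex. It had 19.2, 24.5, 20.2 and 23 RPKM in 5xFAD + PLX5622 hippocampus, against 30.8, 36.8, 31.3 and 35.9 RPKM in 5xFAD hippocampus, and 19, 18.1, 20.3 and 20.8 RPKM in 5xFAD + PLX5622 thalamus, against 26.5, 32.7, 32.1 and 30.9 RPKM in 5xFAD thalamus. Every treated library lay below every untreated library in each region. In wild-type mice Hexa had 17.4, 19.7, 17.8 and 18.5 RPKM in PLX5622 cortex, against 18.9, 19.4, 21 and 22.1 RPKM in Wild-type cortex. It had 18.9, 21.1, 17.9 and 18.7 RPKM in PLX5622 hippocampus, against 20.1, 17.8, 23.6 and 20.3 RPKM in Wild-type hippocampus, and 20.5, 18.4, 18.8 and 20 RPKM in PLX5622 thalamus, against 20.8, 19.3, 23.8 and 23.5 RPKM in Wild-type thalamus. These treated and untreated libraries overlapped in all 3 regions. The log2 fold change was 0.48 in cortex (adjusted p 0.000655), 0.72 in hippocampus (adjusted p 7.56e-07) and 0.48 in thalamus (adjusted p 0.000545) in 5xFAD against Wild-type mice and -0.57 in cortex (adjusted p 5.49e-05), -0.63 in hippocampus (adjusted p 8.62e-06) and -0.64 in thalamus (adjusted p 7.39e-06) with PLX5622 in 5xFAD mice (SE 0.0911 in each). With PLX5622 in wild-type mice it was -0.15 in cortex (adjusted p 0.457), -0.09 in hippocampus (adjusted p 0.729) and -0.17 in thalamus (adjusted p 0.369), and none of these passed.

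Asah1, the acid ceramidase, was the only other member of this role group to pass in the 9 comparisons of genotype or diet, in PLX5622 against Wild-type hippocampus (chr8:41340197-41374773, minus strand, mm10). It had 22.3, 24.9, 23.6 and 24.2 RPKM in 5xFAD + PLX5622 cortex, against 24.8, 23.3, 26.7 and 28.4 RPKM in 5xFAD cortex. It had 22.2, 23, 18.4 and 21.1 RPKM in 5xFAD + PLX5622 hippocampus, against 22.5, 22.9, 21.5 and 23.4 RPKM in 5xFAD hippocampus, and 22.9, 19.4, 24.8 and 22.2 RPKM in 5xFAD + PLX5622 thalamus, against 25.3, 19.9, 26.6 and 26.1 RPKM in 5xFAD thalamus, with overlapping groups throughout. On the wild-type background it had 23.9, 26, 23.3 and 21.6 RPKM in PLX5622 cortex, against 25.1, 26.3, 26.1 and 24.2 RPKM in Wild-type cortex. It had 16.1, 17.4, 17.1 and 17.5 RPKM in PLX5622 hippocampus, against 19.7, 22.9, 22.9 and 20.9 RPKM in Wild-type hippocampus, and 20.6, 24.5, 20.7 and 21.6 RPKM in PLX5622 thalamus, against 21.4, 23.3, 22.5 and 21.2 RPKM in Wild-type thalamus. The hippocampal groups did not overlap, and the log2 fold change there was -0.34 (SE 0.0795, adjusted p 0.00583). Glb1 (beta-galactosidase), Neu1 (sialidase), Gla (alpha-galactosidase A), Galc (galactosylceramidase), Arsa (arylsulfatase A) and Smpd1 (acid sphingomyelinase) did not pass in any of the 9 comparisons of genotype or diet, nor did the activator proteins Psap and Gm2a. Gm2a, which presents GM2 to Hexa's enzyme, had log2 fold changes of 0.14 in cortex (adjusted p 0.557), 0.21 in hippocampus (adjusted p 0.298) and 0.09 in thalamus (adjusted p 0.787) in 5xFAD against Wild-type mice.

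Of the 7 hydrolases of glycosaminoglycans, Gusb passed in 6 comparisons. Gusb encodes beta-glucuronidase (chr5:129989011-130003049, minus strand, mm10). It had 4.53, 3.5, 3.56 and 3.34 RPKM in 5xFAD + PLX5622 cortex, against 5.66, 5.51, 8.55 and 8.4 RPKM in 5xFAD cortex. It had 3.68, 6.5, 4.49 and 5.64 RPKM in 5xFAD + PLX5622 hippocampus, against 8.99, 9.8, 6.15 and 7.84 RPKM in 5xFAD hippocampus, and 4.26, 4.53, 5.03 and 3.95 RPKM in 5xFAD + PLX5622 thalamus, against 7.09, 8.68, 8.8 and 7.22 RPKM in 5xFAD thalamus. The groups did not overlap in cortex and thalamus, and in hippocampus 5xFAD + PLX5622 replicate 2 reached the range of the untreated libraries. Among wild-type mice Gusb had 2.82, 3, 2.77 and 2.94 RPKM in PLX5622 cortex, against 3.22, 3.29, 4.06 and 3.83 RPKM in Wild-type cortex. It had 3.48, 4.81, 2.96 and 2.85 RPKM in PLX5622 hippocampus, against 4.03, 3.36, 4.63 and 3.6 RPKM in Wild-type hippocampus, and 5.55, 3.97, 4.17 and 4.63 RPKM in PLX5622 thalamus, against 3.86, 4.62, 5.28 and 5.91 RPKM in Wild-type thalamus. Only the cortical groups did not overlap. On the log2 scale the change was 0.92 in cortex (adjusted p 0.000389), 1.04 in hippocampus (adjusted p 7.27e-05) and 0.69 in thalamus (adjusted p 0.00921) in 5xFAD against Wild-type mice and -0.88 in cortex (adjusted p 0.000757), -0.69 in hippocampus (adjusted p 0.00917) and -0.82 in thalamus (adjusted p 0.00156) with PLX5622 in 5xFAD mice (SE 0.17 in each), the hippocampal call ending without 5xFAD + PLX5622 hippocampus replicate 1 (-0.55, adjusted p 0.0559). In wild-type mice it was -0.31 in cortex (adjusted p 0.387), -0.16 in hippocampus (adjusted p 0.739) and -0.10 in thalamus (adjusted p 0.878), and none of these passed.

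Arsb, arylsulfatase B of dermatan sulphate breakdown (chr13:93771630-93943016, plus strand, mm10), passed with PLX5622 in thalamus and in no other comparison of genotype or diet. It had 30.6, 31.7, 30.5 and 29.2 RPKM in 5xFAD + PLX5622 cortex, against 32.8, 31.6, 32.8 and 32.8 RPKM in 5xFAD cortex. It had 29, 31.3, 33.5 and 30.9 RPKM in 5xFAD + PLX5622 hippocampus, against 32.5, 32.9, 29 and 33.7 RPKM in 5xFAD hippocampus, and 22.2, 21.3, 22.4 and 24 RPKM in 5xFAD + PLX5622 thalamus, against 27.9, 26.2, 26.7 and 26 RPKM in 5xFAD thalamus. Only the thalamic libraries did not overlap. Without the transgenes, Arsb had 30.6, 31.4, 28.4 and 31 RPKM in PLX5622 cortex, against 28.9, 30.7, 30.5 and 33.1 RPKM in Wild-type cortex. It had 32, 34.2, 31 and 30.6 RPKM in PLX5622 hippocampus, against 32.9, 31.2, 30.5 and 29.2 RPKM in Wild-type hippocampus, and 23.4, 18.4, 22.2 and 22.3 RPKM in PLX5622 thalamus, against 27.9, 28.5, 22.4 and 27.5 RPKM in Wild-type thalamus. The thalamic groups overlapped through Wild-type replicate 3, at 22.4 RPKM. The fitted log2 change in thalamus was -0.25 (SE 0.0656, adjusted p 0.0173) in 5xFAD mice and -0.30 (SE 0.0656, adjusted p 0.00331) in wild-type mice. The 5xFAD call ended without 5xFAD thalamus replicate 1 (adjusted p 0.0537) or 5xFAD + PLX5622 thalamus replicate 2 (0.0609). Naglu, the alpha-N-acetylglucosaminidase of heparan sulphate, had log2 fold changes of 0.56 in cortex (adjusted p 0.0879), 0.57 in hippocampus (adjusted p 0.0837) and 0.43 in thalamus (adjusted p 0.247) in 5xFAD against Wild-type mice, which did not pass. Galns, Sgsh, Ids and Idua did not pass in any of the 9 comparisons.

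Man2b1, the lysosomal alpha-mannosidase, was the glycoprotein hydrolase that passed in 8 comparisons (chr8:85083270-85098282, plus strand, mm10). It had 9.36, 8.52, 8.62 and 7.58 RPKM in 5xFAD + PLX5622 cortex, against 12.9, 13.2, 19 and 16.4 RPKM in 5xFAD cortex. It had 9.77, 12.2, 11 and 9.69 RPKM in 5xFAD + PLX5622 hippocampus, against 14.8, 18.8, 14.8 and 16.3 RPKM in 5xFAD hippocampus, and 9.22, 7.97, 8.16 and 8.71 RPKM in 5xFAD + PLX5622 thalamus, against 14.9, 15.9, 15.9 and 15.3 RPKM in 5xFAD thalamus. Treated and untreated libraries did not overlap in any region. In wild-type mice it had 9.27, 8.69, 8.28 and 8.17 RPKM in PLX5622 cortex, against 11.1, 11, 12.3 and 9.94 RPKM in Wild-type cortex. It had 9.59, 9.82, 8.67 and 9.46 RPKM in PLX5622 hippocampus, against 10.4, 10.2, 13.1 and 11.7 RPKM in Wild-type hippocampus, and 10.5, 8.11, 8.25 and 9.24 RPKM in PLX5622 thalamus, against 12.3, 11.2, 12.1 and 11.2 RPKM in Wild-type thalamus. These also did not overlap in any region. As a log2 fold change, the difference was 0.45 in cortex (adjusted p 0.00352), 0.50 in hippocampus (adjusted p 0.00104) and 0.40 in thalamus (adjusted p 0.0106) in 5xFAD against Wild-type mice (SE 0.1 in each). With PLX5622 it was -0.83 in cortex (adjusted p 3e-07), -0.60 in hippocampus (adjusted p 0.000113) and -0.86 in thalamus (adjusted p 1.48e-07) in 5xFAD mice and -0.36 in cortex (adjusted p 0.0242), -0.27 in hippocampus (adjusted p 0.125) and -0.38 in thalamus (adjusted p 0.0175) in wild-type mice. Of the last set, the cortical call ended without Wild-type replicate 3 (adjusted p 0.0961), PLX5622 replicate 3 (0.0598) or PLX5622 replicate 4 (0.0651), and the thalamic call without PLX5622 replicate 2 (0.068) or 3 (0.0594). Gaa (acid alpha-glucosidase), Manba (beta-mannosidase) and Fuca1 (alpha-fucosidase) did not pass in any of these 9, the nearest being Fuca1 with PLX5622 in wild-type thalamus, at 0.39 (SE 0.125, adjusted p 0.0601).

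Npc2, the soluble protein that hands cholesterol to NPC1 in the lysosomal membrane (chr12:84754562-84773152, minus strand, mm10), was higher in 5xFAD cortex and hippocampus. It had 12.4, 9.44, 9.25 and 9.91 RPKM in 5xFAD + PLX5622 cortex, against 11, 13.8, 16.1 and 12.8 RPKM in 5xFAD cortex. It had 11.4, 12.8, 14.7 and 11.9 RPKM in 5xFAD + PLX5622 hippocampus, against 14.3, 18.8, 16.7 and 16.9 RPKM in 5xFAD hippocampus, and 15.6, 14.5, 14.9 and 14.8 RPKM in 5xFAD + PLX5622 thalamus, against 14.8, 19.5, 18.5 and 17.5 RPKM in 5xFAD thalamus. These treated and untreated groups overlapped. Npc2 in wild-type mice had 9.78, 7.79, 9.37 and 8.21 RPKM in PLX5622 cortex, against 8.32, 10.6, 8.91 and 9.75 RPKM in Wild-type cortex. It had 10.9, 17.2, 12.2 and 11 RPKM in PLX5622 hippocampus, against 12.2, 10, 13.3 and 10.1 RPKM in Wild-type hippocampus, and 20, 14.1, 15.7 and 18.3 RPKM in PLX5622 thalamus, against 12.3, 14.5, 16.7 and 15.2 RPKM in Wild-type thalamus. The 5xFAD libraries lay above the Wild-type libraries in cortex and hippocampus. On the log2 scale the fold change was 0.50 in cortex (adjusted p 0.0166), 0.55 in hippocampus (adjusted p 0.0079) and 0.26 in thalamus (adjusted p 0.32) in 5xFAD against Wild-type mice (SE 0.133 in each), and -0.38 in cortex (adjusted p 0.0881), -0.39 in hippocampus (adjusted p 0.0782) and -0.23 in thalamus (adjusted p 0.421) with PLX5622 in 5xFAD mice. The cortical call ended without 5xFAD replicate 3 (adjusted p 0.0845) or Wild-type replicate 1 (0.0654). Npc1, the partner of Npc2, and Lipa, the lysosomal acid lipase, passed in none of the 9.

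Lgmn, the asparagine-specific protease legumain (chr12:102394084-102439813, minus strand, mm10), passed in 5 comparisons, 1 of them of genotype and 4 of diet. It had 36.2, 26.9, 30.9 and 31.1 RPKM in 5xFAD + PLX5622 cortex, against 47.6, 49.4, 59.4 and 48.3 RPKM in 5xFAD cortex. It had 36.5, 38.1, 38.6 and 32 RPKM in 5xFAD + PLX5622 hippocampus, against 55.9, 61, 52 and 61 RPKM in 5xFAD hippocampus, and 48.6, 38.7, 48.1 and 40.2 RPKM in 5xFAD + PLX5622 thalamus, against 51.7, 66.7, 54.8 and 57 RPKM in 5xFAD thalamus. The groups did not overlap in any region. Among wild-type mice Lgmn had 31.6, 28.7, 33.1 and 31.9 RPKM in PLX5622 cortex, against 43.7, 43.5, 42.6 and 41.5 RPKM in Wild-type cortex. It had 37.9, 34.3, 31.3 and 37 RPKM in PLX5622 hippocampus, against 42.5, 42.9, 51.5 and 39.7 RPKM in Wild-type hippocampus, and 55.8, 52.3, 45.5 and 57.3 RPKM in PLX5622 thalamus, against 44, 46.6, 61.9 and 56.7 RPKM in Wild-type thalamus. The cortical and hippocampal groups did not overlap and the thalamic ones did. The fitted log2 fold change was 0.25 in cortex (adjusted p 0.175), 0.38 in hippocampus (adjusted p 0.0182) and 0.15 in thalamus (adjusted p 0.547) in 5xFAD against Wild-type mice, -0.71 in cortex (adjusted p 8.87e-06), -0.66 in hippocampus (adjusted p 2.97e-05) and -0.39 in thalamus (adjusted p 0.0156) with PLX5622 in 5xFAD mice and -0.45 in cortex (adjusted p 0.00437), -0.33 in hippocampus (adjusted p 0.0529) and 0.02 in thalamus (adjusted p 0.966) with PLX5622 in wild-type mice (SE 0.102 in each). The hippocampal genotype call ended without 5xFAD replicate 2 (adjusted p 0.0576), 5xFAD replicate 4 (0.0534) or Wild-type replicate 4 (0.0754), and the thalamic diet call without 5xFAD replicate 2 (0.0776) or 5xFAD + PLX5622 replicates 2 (0.0708) or 4 (0.0566). The protease Tpp1 and the thioesterase Ppt1, whose losses cause neuronal ceroid lipofuscinoses, passed in none of the 9.

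**Figure D3:**
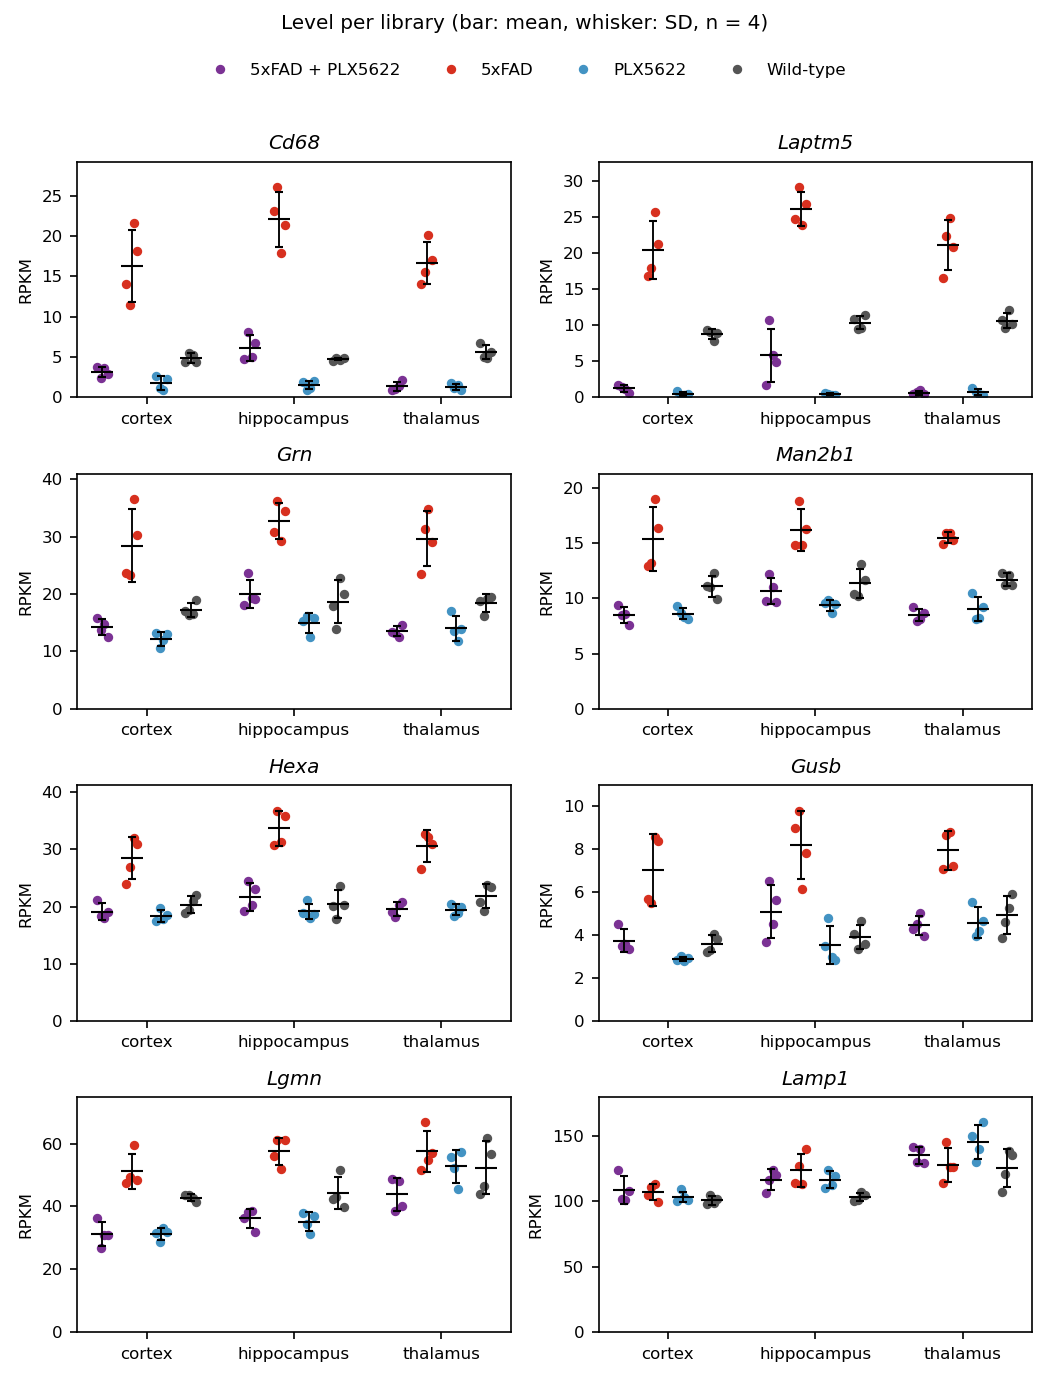
RPKM of Cd68, Laptm5, Grn, Man2b1, Hexa, Gusb, Lgmn and Lamp1 in every library (points), with the mean (bar) and SD (whisker, n = 4), in cortex, hippocampus and thalamus of 5xFAD + PLX5622, 5xFAD, PLX5622 and Wild-type mice, left to right in each region; every axis starts at 0. The first 7 genes have their highest mean in 5xFAD mice in each region, and Lamp1 lies wholly above Wild-type only in 5xFAD and PLX5622 hippocampus.

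The level left on the diet ranged widely over the set. In 5xFAD mice the level left ran over the set from 5.94% to 110% of the untreated mean in cortex (median 94.6%), from 22.2% to 115% in hippocampus (median 94.7%) and from 2.88% to 126% in thalamus (median 99.9%). In wild-type mice it ran from 5.02% to 115% (median 97.8%), 3.89% to 129% (median 104%) and 6.34% to 131% (median 106%). Below 50% of the untreated level were 2, 2 and 3 genes in 5xFAD cortex, hippocampus and thalamus and 2 in each region of wild-type mice, Cd68 and Laptm5 in every case, with Grn as the third gene in 5xFAD thalamus. The microglial marker sum was left at 8.58%, 23% and 5.01% in 5xFAD mice and at 9.27%, 8.97% and 9.29% in wild-type mice, and the border macrophage sum (5 of its 7 genes in the table) at 14.4%, 22% and 14.5% and at 13.6%, 18.1% and 21.4%. Laptm5 was left below the microglial sum in 6 of 6 groups and Cd68 above it in 6 of 6, while Grn, Man2b1, Hexa, Gusb and Lgmn were left at 45.6% to 76.3% in 5xFAD mice. Naglu, which did not pass, was left at 66.9%, 81.2% and 70.3% in 5xFAD cortex, hippocampus and thalamus. Over the set, 9, 8 and 8 genes were left below 80% in these regions of 5xFAD mice and 5, 4 and 4 in wild-type mice. Lgmn averaged 52.7 RPKM in PLX5622 thalamus, against 52.3 RPKM in Wild-type thalamus. In 5xFAD hippocampus, Laptm5 at 22.2% ± 14.4 and Cd68 at 27.7% ± 7.25 lay within 1 SD of the microglial sum (23%). In 5xFAD thalamus, Cd68 at 7.92% ± 3.28 did so too (5.01%). The part of these cell types in the levels of the lysosomal genes was not tested.

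**Figure D4:**
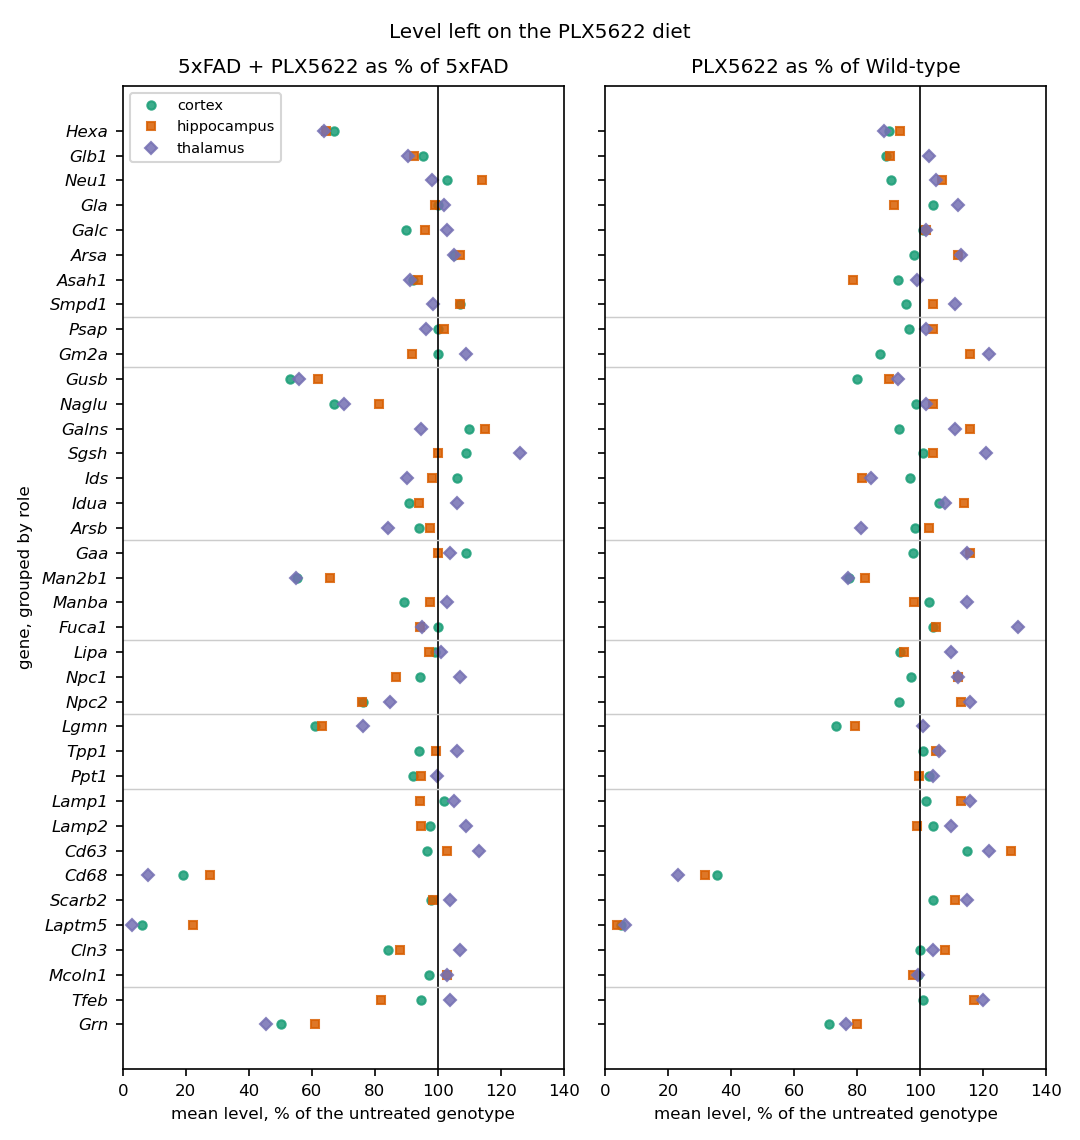
Mean level of each of the 37 genes on the PLX5622 diet as a percent of the untreated mean of the same genotype (n = 4 each), 5xFAD mice in the left panel and wild-type mice in the right, with regions as symbols and 100% as a line. Cd68 and Laptm5 lie below 50% in each panel and region, and most genes lie near the line.

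Counts of genes whose libraries did not overlap do not use the fitted error. In 5xFAD against Wild-type mice, 13 genes were higher with no overlap in cortex (background 3.44%), 11 in hippocampus (background 3.92%) and 6 in thalamus (background 1.41%). With PLX5622 in 5xFAD mice, 9 were lower in cortex (background 3.6%), 6 in hippocampus (background 4.06%) and 8 in thalamus (background 3.96%). With PLX5622 in wild-type mice, 7 were lower in cortex (background 2.84%), 5 in hippocampus (background 8.32%) and 3 in thalamus (background 3.46%). The smallest two-sided p that an exact permutation test of 4 against 4 can give is 0.0286.

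Treated 5xFAD mice were also set against treated and untreated wild-type mice, each comparison adjusted by itself. Against PLX5622 mice, 3 genes were higher in hippocampus, where 0.764% of tested genes were higher: Laptm5 (log2 fold change 3.32, adjusted p 8.02e-08), Cd68 (1.99, 3.1e-06) and Asah1 (0.31, 0.0468), the last ending on leaving out any of 32 libraries. The microglial sum was 53.6-209 RPKM in 5xFAD + PLX5622 hippocampus and 13.1-22.6 RPKM in PLX5622 hippocampus, and its part in these differences was not tested. In cortex and thalamus no gene passed in limma or voom, although 6 of the 37 genes in cortex were higher (background 4.37%) and 3 in thalamus lower (background 4.21%) at an unadjusted p below 0.05. Neu1, Arsa, Smpd1, Psap, Gm2a, Gusb, Cd63 and Tfeb, 8 of the 37, were higher with no overlap between the libraries in cortex (background 3.25%). In hippocampus 4 were higher with no overlap (background 2.59%), and in thalamus 1 was lower (background 3.44%). Against Wild-type mice, 2 genes were lower in cortex (background 0.883%), Laptm5 (-2.83, adjusted p 7.46e-07) and Lgmn (-0.46, 0.00798), the Lgmn call ending without 5xFAD + PLX5622 cortex replicate 2 (-0.39, 0.0834). In thalamus 3 were lower (background 1.57%), Laptm5 (-3.99, 1.7e-10), Cd68 (-2.06, 5.85e-07) and Man2b1 (-0.46, 0.00534). No gene passed in hippocampus in limma, where 4 were higher (background 4.77%) and 2 lower (background 3.36%) at an unadjusted p below 0.05 and voom on recovered reads called 1. Hexa stood at 93.8% ± 7.07 of the Wild-type mean in 5xFAD + PLX5622 cortex, 106% ± 11.9 in hippocampus and 89.5% ± 5.71 in thalamus.

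Whether PLX5622 changed a gene by a different amount in the 2 genotypes was tested as an interaction. Hexa passed in hippocampus, with an added change of -0.54 in 5xFAD mice (SE 0.129, adjusted p 0.049, background 0.025%), but the call ended on leaving out any of 36 libraries. None of the 37 passed in cortex or thalamus in limma or in voom. At an unadjusted p below 0.05 the added change was negative for 6 in cortex (background 1.4%) and 9 in thalamus (background 1.15%). In hippocampus it was negative for 11 (788 of all 15975 tested genes) and positive for 2 (1588 of 15975). The largest added change there was positive, 1.99 for Laptm5, and did not pass. Laptm5 changed by -2.42 with PLX5622 in 5xFAD hippocampus and by -4.41 in wild-type hippocampus, where a treated library had as few as 7 of its reads. The PLX5622 effect in 5xFAD mice differed between hippocampus and thalamus for Laptm5 (2.55, SE 0.501, adjusted p 0.00885) and Cd68 (1.76, SE 0.371, adjusted p 0.0154), both falling less in hippocampus, where 0.576% of tested genes had such a difference. Without hippocampal 5xFAD + PLX5622 replicates 3 and 4 these were 2.39 (adjusted p 0.0345) and 1.81 (adjusted p 0.0298). The Cd68 difference ended without 5xFAD hippocampus replicate 3 (adjusted p 0.054) or 5xFAD + PLX5622 thalamus replicate 1 (adjusted p 0.058). Neither the 5xFAD effect between regions nor the PLX5622 effect between hippocampus and cortex passed for any gene in limma or voom, and at an unadjusted p below 0.05 there were 1 and 2 such genes for the 5xFAD effect between hippocampus and cortex (background 3.72%) and between hippocampus and thalamus (background 8.39%), and 1 for the PLX5622 effect (background 4.95%).

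Other lysosomal genes were read from 5 lists. Among 22 tested other hydrolases, Plbd2 rose with PLX5622 in wild-type thalamus (0.32). Of 22 other membrane proteins, Slc11a1, an ion exporter of phagosomes, passed in all 9, with 1.70, 1.54 and 1.24 in 5xFAD mice, -3.31, -1.95 and -3.60 with PLX5622 in 5xFAD mice and -2.22, -2.97 and -2.11 in wild-type mice, its level being 0 in at least 1 library of 5xFAD + PLX5622 thalamus and of PLX5622 hippocampus. With PLX5622, Slc29a3 fell in 5xFAD cortex (-0.51) and hippocampus (-0.52), and Laptm4b rose in wild-type thalamus (0.33). Of 18 subunits of the proton pump, only Atp6ap2 passed, lower by 0.30 on the log2 scale in 5xFAD against Wild-type hippocampus (adjusted p 0.0165), and 6 were higher at an unadjusted p below 0.05 with PLX5622 in 5xFAD hippocampus (background 6.12%). Of 16 sorting genes, Nagpa fell with PLX5622 in 5xFAD cortex (-0.67) and Sort1 in both genotypes' thalamus (-0.25 in 5xFAD and -0.28 in wild-type mice). Of 19 genes of the TFEB family and its regulators, Lamtor2 alone passed, with PLX5622 in wild-type thalamus (0.32, adjusted p 0.0401). Of all 15975 tested genes, 87 rose with PLX5622 in wild-type thalamus and 67 were lower in 5xFAD against Wild-type hippocampus. With PLX5622, 2.05%, 2.27% and 2.42% of tested genes fell in 5xFAD cortex, hippocampus and thalamus, and 3.3% in wild-type thalamus.

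In Wild-type mice Psap, which gives rise to the saposins, was the highest of the set at 395 RPKM in each region, followed by Ids at 115, Lamp1 at 110 and Gaa at 90.3 RPKM as means of 3 regions, and Sgsh was lowest at 2.08 RPKM. The median was 11.8 RPKM, against 7.33 RPKM over all tested genes, and 27 of the 37 lay above that. Wild-type hippocampus against Wild-type cortex gave 1 call, Tfeb (log2 fold change 0.89, SE 0.17, adjusted p 0.000619, background 4.31%), which had 3.28, 2.95, 3.8 and 3.36 RPKM in hippocampus, against 1.99, 1.84, 1.57 and 1.63 RPKM in cortex. Hippocampus against thalamus gave 4 calls (background 11.3%), with Gaa (-0.66), Arsa (-0.45) and Lamp1 (-0.27) lower and Arsb higher (0.22). Gaa had 81.4, 68.2, 78.7 and 75.5 RPKM in hippocampus, against 112, 102, 124 and 145 RPKM in thalamus, with no overlap. Cortex against thalamus gave 13 calls (background 18.2%), 11 of them lower, led by Tfeb (-1.08), Cd63 (-0.79) and Sgsh (-0.78), while Ids (0.62) and Arsb (0.22) were higher. Without Wild-type thalamus replicate 3 these fell to 5 calls, and hippocampus against thalamus to 1. The summed level of 9 oligodendrocyte markers was 666-814 RPKM in Wild-type cortex, 1168-1359 RPKM in hippocampus and 1021-1766 RPKM in thalamus, and its part in these differences was not tested.

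**Figure D5:**
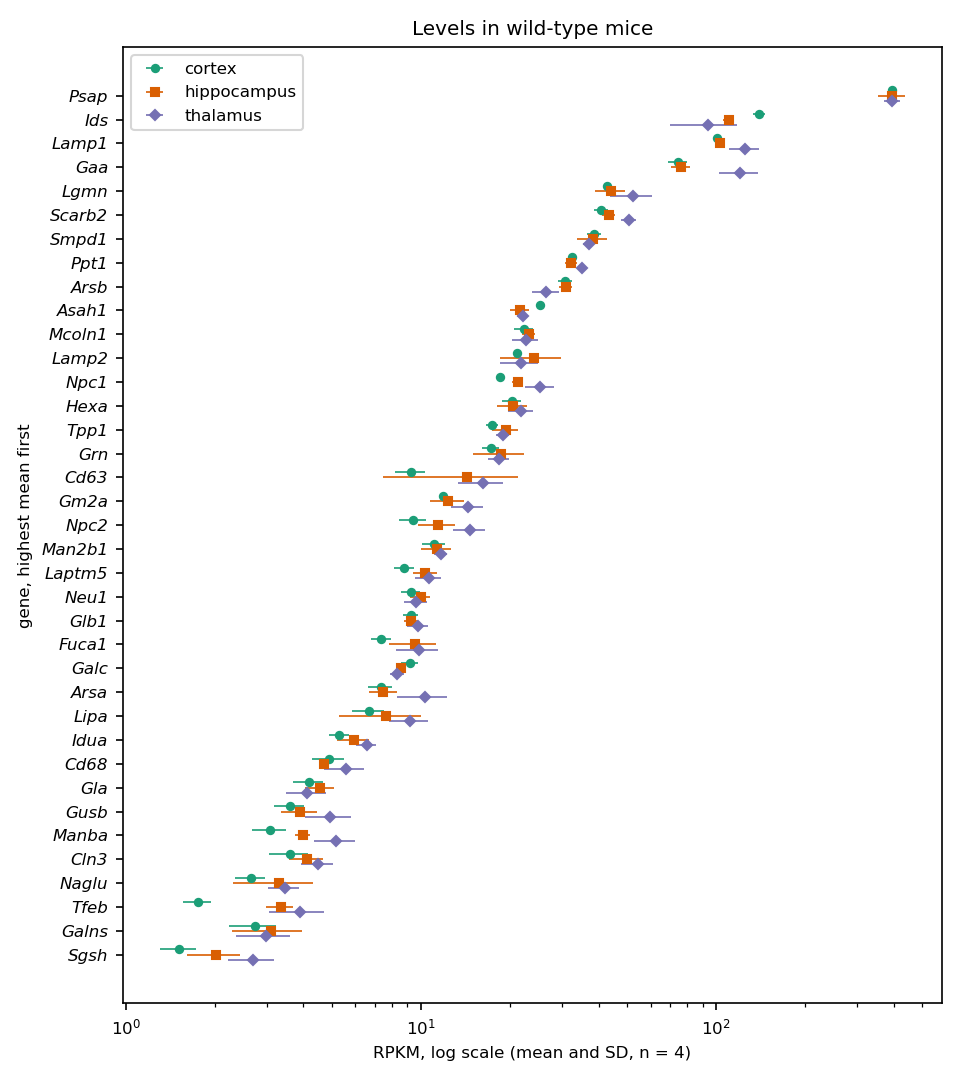
Wild-type RPKM of the 37 genes on a log axis (mean and SD, n = 4) in cortex (circles), hippocampus (squares) and thalamus (diamonds), highest mean first. Psap stands at 395 RPKM in each region, and Tfeb is lowest in cortex.

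The 26 genes that did not pass in any of the 9 comparisons had fold changes between -0.57 and 0.63 on the log2 scale, and 212 of their 234 values (90.6%) lay within 0.25 of 0. Their SE ran from 0.0472 to 0.212, and the smallest adjusted p was 0.0601. The 95% interval of the difference lay within 0.5 of 0 for 24, 23 and 27 of the 30, 28 and 32 uncalled genes in 5xFAD against Wild-type cortex, hippocampus and thalamus, for 27, 26 and 26 of 30, 30 and 29 with PLX5622 in 5xFAD mice, and for 30, 27 and 26 of 32, 34 and 33 in wild-type mice.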

How the data were processed

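RNA sequencing covered 48 libraries, 4 in each of 12 groups of genotype, diet and region. The authors used STAR for alignment (mm10), featureCounts for gene counts and edgeR for filtering and scaling, and deposited RPKM values. Whole reads could be recovered from these deposited RPKM values for 16014 of 16014 genes (within 0.05 reads), which gave the depth of each library. It is unknown if the RPKM include that scaling. The library kit is named differently in the labels and in the methods. Values were tested as log2(RPKM + 0.1) with limma 3.58.1 (R 4.3.3, a group-means model of all 48 libraries, a mean-variance trend), for genes with at least 0.2 RPKM in at least 4 libraries. Benjamini-Hochberg adjustment ran over all genes and the 15 comparisons of the methods together. Other comparisons were adjusted by themselves. The alternatives were pseudocounts of 0.01 and 1, other filters on low values, each region fitted alone, no trend, separate adjustment, voom on recovered reads, a replicate block, each library left out, and hippocampal libraries with liver RNA left out. The fit was tested on simulated data. Genes were placed by GENCODE annotation of mm10 and promoter windows by RefSeq (GRCm38.p6). Members and gene lists were chosen with earlier results of these data known. Per-library values were printed for the 10 members called in the most of the 9 genotype and diet comparisons, and for Lamp1 in hippocampus, the only other member called in any of them, chosen after its values were seen. Results of some genes in the lists used are not reported here.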

Additional observations from a re-analysis of the deposited data

Results flagged for a closer look

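A single library stood apart from the other 3 of its group by Dixon's test in 3 of 120 groups examined, fewer than the roughly 1 in 20 that chance gives. Lgmn had 59.4 RPKM in 5xFAD cortex replicate 3 (gap over range 0.85), where the others had 47.6, 49.4 and 48.3 RPKM. Arsb had 31.6 RPKM in 5xFAD cortex replicate 2 (0.936), where the others each had 32.8 RPKM, and 22.4 RPKM in Wild-type thalamus replicate 3 (0.846), where the others had 27.9, 28.5 and 27.5 RPKM.

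In 3 cases an effect differed between groups by a test of the difference. The PLX5622 effect on Hexa in hippocampus differed by -0.54 between 5xFAD and wild-type mice (limma adjusted p 0.049), but this call ended on leaving out any of 36 libraries. The PLX5622 effect in 5xFAD mice differed between hippocampus and thalamus by 1.76 for Cd68 (adjusted p 0.0154) and by 2.55 for Laptm5 (adjusted p 0.00885). The Cd68 call ended on leaving out either of 2 libraries.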

How the results depend on the processing

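Of 1016 calls of named genes recomputed under other settings, 961 kept their call, 55 lost it and 0 reversed, and of 4032 recomputed with a library left out, 3857 kept it, 175 lost it and 0 reversed. Each region fitted alone gave 5 members higher in 5xFAD hippocampus in place of 9, 3 lower with PLX5622 in wild-type cortex in place of 5, and 0 for the genotype and diet interaction in hippocampus in place of 1. Adjusting each comparison by itself gave 3 higher in 5xFAD thalamus in place of 5 and 3 lower with PLX5622 in wild-type cortex in place of 5. Voom on recovered reads gave 3 lower with PLX5622 in wild-type cortex in place of 5, 7 between Wild-type hippocampus and thalamus in place of 4, and, in 5xFAD + PLX5622 against Wild-type mice, 1 in cortex in place of 2 and 1 in hippocampus in place of 0. A pseudocount of 0.01 gave 2 for the hippocampal interaction, and leaving out the trend or hippocampal 5xFAD + PLX5622 libraries 3 and 4 gave 0, in place of 1. A pseudocount of 1 gave 1 in place of 0 for 5xFAD + PLX5622 against Wild-type hippocampus and for the thalamic interaction. The cause of these changes was not tested.

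Leaving out each replicate in turn gave 5-8, 7-10 and 5-6 members higher in 5xFAD cortex, hippocampus and thalamus, 7-8, 6-8 and 6-8 lower with PLX5622 in 5xFAD mice, and 4-5, 3-4 and 3-5 lower in wild-type mice. It gave 1-2, 1-4 and 5-16 for Wild-type hippocampus against cortex, hippocampus against thalamus and cortex against thalamus. For 5xFAD + PLX5622 against PLX5622 mice it gave 0-1 in cortex and 2-3 in hippocampus, and against Wild-type mice 1-3 in cortex and 0-1 in hippocampus. The hippocampal interaction gave 0-2 and the difference of the PLX5622 effect between hippocampus and thalamus 1-2.

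Deviations of libraries with the same replicate number and region had a median correlation of 0.019 between arms (-0.515 to 0.666, 18 of 72 over 0.1). Between regions of the same arm the median was 0.007 (-0.281 to 0.371, 9 of 48 over 0.1). With 4 libraries in each group, these values cannot decide whether replicate numbers pair the samples or which libraries share a mouse. With a replicate block, 6, 8 and 5 members were higher in 5xFAD mice in place of 7, 9 and 5, and the diet comparisons kept 7, 7 and 8 in 5xFAD and 5, 3 and 4 in wild-type mice. Depth limits Laptm5 in treated mice most, where a library had as few as 4 reads.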
